A study of Mus musculus with 15 samples.

Results

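Adhesion G protein-coupled receptors are cell-surface receptors with a long extracellular region, and 9 of them were examined here in the alpha, beta and delta cells of mouse pancreatic islets: Gpr56, Gpr116, Cd97, Lphn1, Lphn2, Lphn3, Celsr1, Celsr2 and Celsr3. They were taken by gene name from the 38283 genes of the table. Transcripts were measured by RNA sequencing in 15 sorted samples, each from pooled mice on the C57BL/6 background. Glu-Venus mice, in which a glucagon promoter drives the Venus fluorophore, gave the alpha cells (n = 5) and, from the Venus-negative fraction, the beta cells (n = 4). Delta cells (n = 6) came from Sst-CreXROSA26EYFP/EYFP mice, in which Cre expressed from the somatostatin gene switches on EYFP. For delta cells, mouse line and cell type therefore cannot be told apart. Ages and sexes are not given in the sources used here. Values are FPKM, in which fragments are scaled for the length of the transcript and for the mapped total of the sample. Replicates are pools of mice, so the p-values measure the spread between pools. Whether alpha and beta samples share mice is not given in the sources used here, and the fit took them as separate.

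In this family most members are cut, as they mature, into an extracellular part that binds other proteins and a seven-pass membrane part that signals through G proteins, and a short stretch next to the cut can act as a tethered agonist. Gpr56 (Adgrg1) binds collagen III. Gpr116 (Adgrf5) is best known from lung epithelium and endothelium, where it takes part in surfactant balance. Cd97 (Adgre5) is prominent on leukocytes and binds Cd55. Lphn1, Lphn2 and Lphn3 (Adgrl1 to Adgrl3) are the latrophilins, which bind teneurins and Flrt proteins across cell contacts. Celsr1, Celsr2 and Celsr3 are cadherin-bearing receptors of the planar cell polarity system.

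Differences below are differences of mean log2(FPKM + 1), a scale that understates the change of genes with low values. They come from a limma fit of all 15 samples over the 14405 genes with a cell type mean above 1 FPKM, and a call means a Benjamini-Hochberg adjusted p under 0.05. Of the 9 receptors, 8 were in that fit and Celsr1 was below the filter. Gpr116 and Lphn2 passed the filter only through delta cells, so in this fit they had to differ, and the counts, medians and calls below that include them are a description only. Beside the adjusted p that a gene passing this way has in this fit, that of the limma fit with no filter, which does not use this choice, is given. In limma's F-test across the 3 cell types 4 receptors were called (Gpr116, Cd97, Lphn2 and Lphn3), against 16.0% of all genes. That number was 3 to 6 over the alternatives, and Lphn2 lost its call in 4 of 15 fits that left out 1 sample (limma adjusted p up to 0.0671) and with quantile normalization (0.0612). Cd97 lost its call with the replicate block (limma adjusted p = 0.0672). Between beta and alpha cells limma called 0 receptors, against 7.66% of all genes (2.84% higher and 4.82% lower in beta cells), and 1 (Lphn3) had an unadjusted p under 0.05. Between delta and alpha cells 2 were called, Gpr116 higher and Lphn3 lower in delta cells, against 6.81% of all genes (5.33% higher and 1.48% lower). Between delta and beta cells 6 were called, against 14.7% of all genes (11.7% higher and 2.99% lower): Gpr56, Gpr116, Cd97, Lphn2 and Celsr3 were higher and Lphn3 was lower in delta cells. Samples did not overlap for 1 of the 8 receptors between beta and alpha cells (8.12% of all genes), for 2 between delta and alpha cells (6.64%) and for 4 between delta and beta cells (14.9%). The median difference of the 8 receptors was -0.18 for beta minus alpha, 1.12 for delta minus alpha and 1.21 for delta minus beta, beside -0.13, 0.13 and 0.30 over all genes tested. These 3 comparisons share samples and are not independent of one another.

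**Figure D1:**
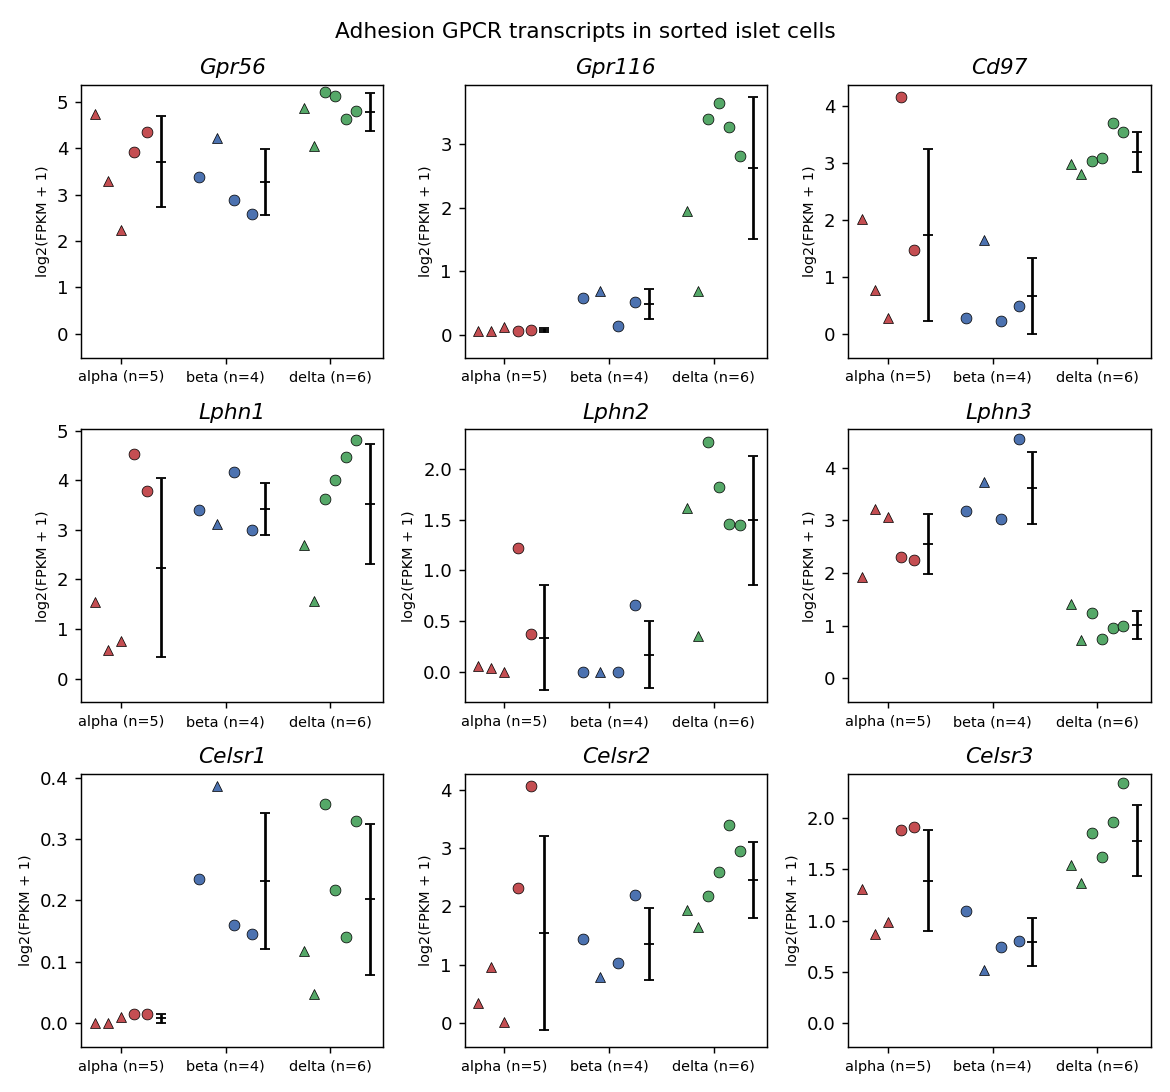
Log2(FPKM + 1) of each receptor in each sample, by cell type, with black bars for the mean ± SD; triangles are samples with a summed ribosomal protein FPKM above 50000 and circles the others. Gpr116 and Lphn3 are the receptors whose delta samples stand apart from both other cell types, Gpr116 above and Lphn3 below.

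**Figure D2:**
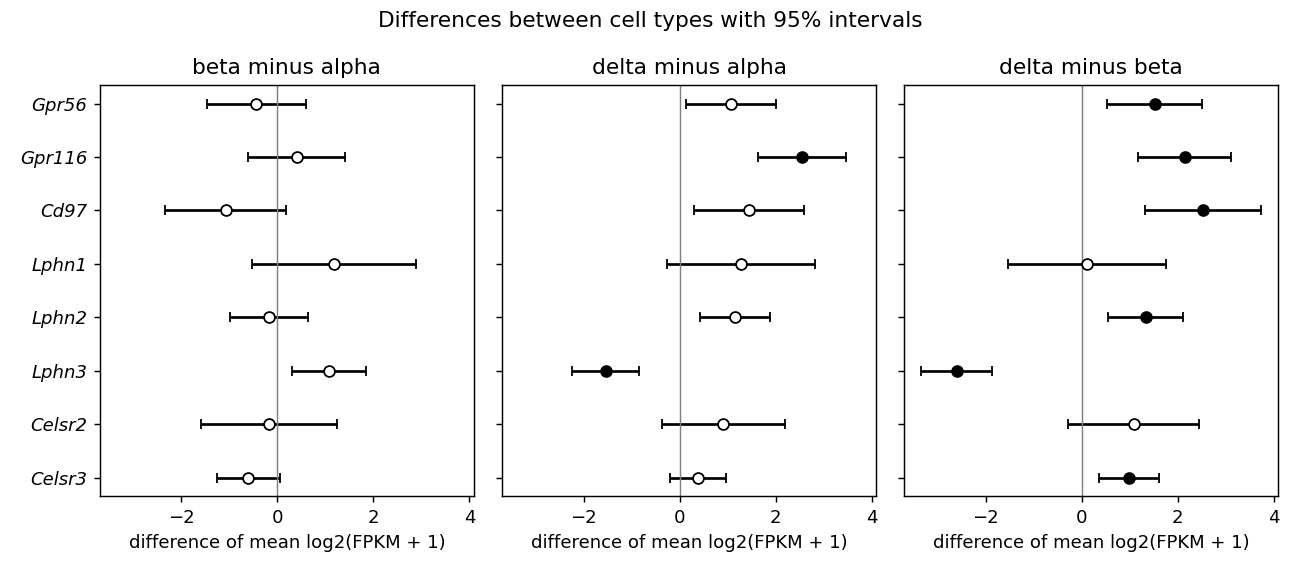
Difference of mean log2(FPKM + 1) with its 95% confidence interval for the 8 receptors tested in each comparison; filled points have a limma adjusted p under 0.05. Gpr116, at 2.55 against alpha and 2.15 against beta cells, and Lphn3, at -1.54 and -2.60, are filled in both comparisons with delta cells.

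As a check of the labels, each hormone gene was highest in the cells named for it: Gcg averaged 273100 FPKM in alpha cells, Ins2 295200 in beta cells and Sst 163300 in delta cells. Ppy, the gene of pancreatic polypeptide, averaged 30420 FPKM in alpha and 21470 in delta cells. A sum over 83 ribosomal protein genes parted the samples into 2 sets that do not follow cell type. Alpha 1 to 3, beta 2 and delta 1 and 2 formed the higher set (65596 to 140964 FPKM) and the other 9 samples the lower set (7912 to 38761). Read steps could be resolved in 6 samples and give between 7.59 M and 30.2 M reads. The depth of the other 9 is unknown.

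Sequence around the start site is shown for 3 of the 4 receptors called across cell types, Gpr116 and Lphn2 (highest in delta cells) and Lphn3 (lowest in delta cells). Each run is the RefSeq promoter window of GRCm38.p6, 250 bases before to 50 after an annotated start, 5′ to 3′ on the gene's strand, with every CG dinucleotide in capitals. CG reads the same on both strands. The Lphn2 start and this Lphn3 start are ones that RefSeq places inside the span GENCODE gives the gene, downstream of its outermost start.
Gpr116, chr17:43360181-43360480, plus strand: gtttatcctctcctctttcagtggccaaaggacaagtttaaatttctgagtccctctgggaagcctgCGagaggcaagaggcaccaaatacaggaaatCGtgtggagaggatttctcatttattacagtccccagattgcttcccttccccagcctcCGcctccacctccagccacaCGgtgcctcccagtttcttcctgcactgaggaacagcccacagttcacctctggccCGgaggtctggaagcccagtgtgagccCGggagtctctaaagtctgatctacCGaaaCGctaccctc
Lphn2, chr3:148954586-148954885, minus strand: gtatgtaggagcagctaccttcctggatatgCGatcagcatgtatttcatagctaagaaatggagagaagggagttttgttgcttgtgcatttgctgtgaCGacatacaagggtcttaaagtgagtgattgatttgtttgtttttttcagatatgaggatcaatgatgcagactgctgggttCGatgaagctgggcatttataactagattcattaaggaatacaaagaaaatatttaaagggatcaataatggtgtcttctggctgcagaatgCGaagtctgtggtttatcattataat
Lphn3, chr5:81020321-81020620, plus strand: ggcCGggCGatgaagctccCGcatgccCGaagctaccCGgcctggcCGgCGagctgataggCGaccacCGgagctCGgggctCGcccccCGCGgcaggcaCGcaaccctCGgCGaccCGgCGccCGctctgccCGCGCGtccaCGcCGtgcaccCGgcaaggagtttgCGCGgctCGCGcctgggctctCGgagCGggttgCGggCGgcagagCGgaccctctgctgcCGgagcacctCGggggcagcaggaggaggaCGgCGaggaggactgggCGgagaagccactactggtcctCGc
The Gpr116 window holds 8 CG dinucleotides and the Lphn2 window 4, while this Lphn3 window holds 40. Over all 32851 promoter windows of the same length, 94.6% hold a CG, the median count is 7 and 26.5% hold at least 20. RefSeq windows were matched for 7 of the 9 receptors (11 windows in all), not for Cd97 and Celsr1. The other Gpr116 window also holds 8, the other Lphn3 windows hold 21 and 20, Celsr2 40, Lphn1 28 and Celsr3 25, and the Gpr56 windows hold 7 and 6. These counts are a description of the windows and were not related to the levels by a test.

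Gpr116 was the receptor with the widest gap between delta and alpha cells. The gene lies at chr17:43360451-43459557 (GENCODE M21, GRCm38, plus strand), and the printed promoter window is at its start. Alpha samples 1 to 5 were at 0.0365, 0.0465, 0.0899, 0.0467 and 0.0539 FPKM, and beta samples 1 to 4 at 0.496, 0.607, 0.105 and 0.429 FPKM. Delta samples ran from 0.619 to 11.5 FPKM with a median of 7.35. All delta samples were above all others, but delta 2, the lowest, was close to beta 2, and all beta samples were above all alpha samples. Mean levels were 6.53 ± 4.17 FPKM in delta (SD, n = 6), 0.409 ± 0.216 in beta (SD, n = 4) and 0.0547 ± 0.0206 in alpha cells (SD, n = 5), a ratio of 119 between delta and alpha and of 16.0 between delta and beta cells. On the log2 scale delta cells were higher by 2.55 (SE 0.431, limma adjusted p = 0.00105) than alpha and by 2.15 (SE 0.459, limma adjusted p = 0.00477) than beta cells. With no filter the limma adjusted p was 0.00282 against alpha and 0.0101 against beta cells. Beta exceeded alpha cells by 0.40 (SE 0.477, limma adjusted p = 0.654, and 0.741 with no filter), a difference not called even though their samples did not overlap. Both delta calls held in all alternatives run, with adjusted p up to 0.0122 against alpha and up to 0.0296 against beta cells in limma. All of these but the fit with no filter used a filter that Gpr116 passed only through delta cells, so they are a description.

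The alpha values of Gpr116 rest on few reads. At the depth resolved for alpha 2, its value corresponds to about 2.95 reads, against about 51.2 in delta 2 and 256.0 in delta 1, whose depths (9.92 M and 10.8 M reads) were nearest to that of alpha 2 (7.59 M). At the higher depths of alpha 5 (26.2 M) and delta 3 (30.2 M) the values correspond to about 11.8 and 2401 reads. The 2 delta samples of the higher ribosomal set averaged 1.73 FPKM and the 4 of the lower set 8.93. In alpha cells the corresponding means were 0.0577 and 0.0503 FPKM, and in beta cells 0.607 (a single sample) and 0.343. In a fit of the lower set only, added after the data were seen, delta exceeded alpha cells by 3.21 (limma adjusted p = 0.000657) and beta cells by 2.87 (limma adjusted p = 0.000428). This fit kept the filter that Gpr116 passed only through delta cells, so its values are a description. By mean FPKM, delta cells were above both other cell types within each set.

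Since endothelial cells also carry Gpr116, their markers were read beside it. The sum of 8 endothelial markers was 1.54 to 3.43 FPKM in alpha, 0.642 to 3.84 in beta and 3.37 to 6.17 in delta cells. All 8 had their highest mean in delta cells, as Gpr116 did. Esam, the 1 marker that averaged above 1 FPKM, was at 2.16 FPKM in alpha, 1.71 in beta and 3.79 in delta cells. Pecam1 averaged 0.0207, 0.0226 and 0.322 FPKM in the same order and was above 0 in every delta sample, and Plvap averaged 0.0311, 0.00226 and 0.201. Cdh5 and Tek were at 0 in all alpha samples and in 4 of the 6 delta samples, where they reached at most 0.0806 and 0.0460 FPKM. The part of endothelial RNA in the Gpr116 values was not tested. In bulk samples, fewer cells of a type and less RNA per cell cannot be told apart.

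A surfactant protein that binds Gpr116 in the lung, Sftpd, was listed at 0 in all alpha and all beta samples. In delta cells it ran from 7.42 to 13.4 FPKM (median 8.08). It was called in delta against alpha (limma adjusted p = 8.35e-08) and against beta cells (limma adjusted p = 9.79e-08), though it passed the filter only through delta cells. With no filter the limma adjusted p was 2.81e-07 and 4.29e-07, and no fold is given against a group listed at 0. Within delta cells, receptor and binding partner were not ordered alike: delta 2 had the most Sftpd and the least Gpr116.

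**Figure D3:**
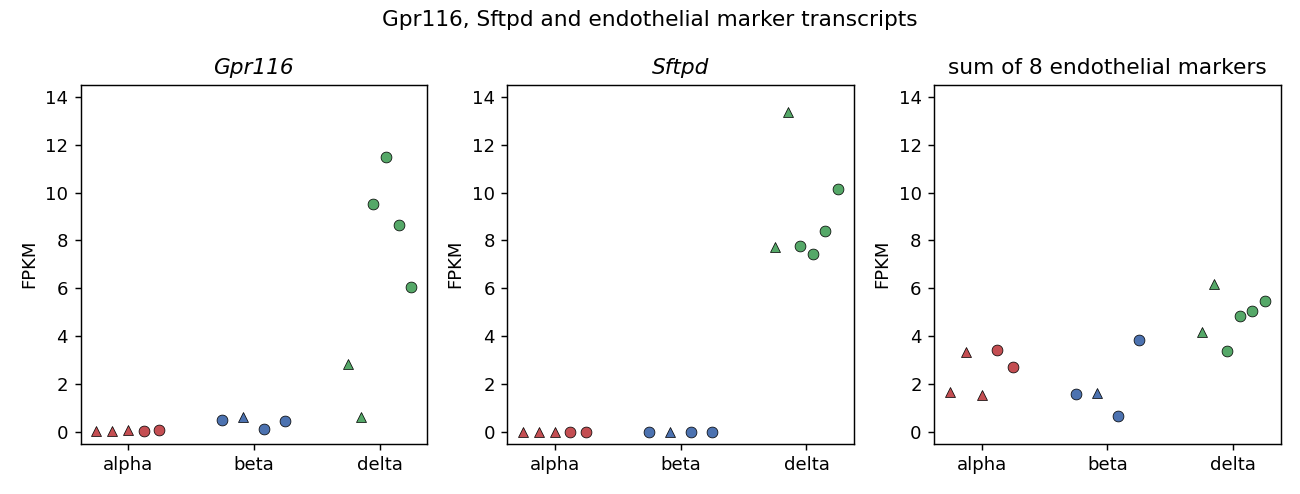
FPKM of Gpr116, of Sftpd and of the sum of 8 endothelial markers in each sample, by cell type, with triangles for the higher ribosomal set. Alpha and beta samples lie at 0 in the Sftpd panel, and delta 2, the delta sample with the highest Sftpd (13.4 FPKM), has the lowest Gpr116 (0.619 FPKM).

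Lphn3 showed the opposite order, with delta cells lowest. It is a latrophilin that pairs with Flrt3 and teneurins at synapses, and its gene spans chr5:81020138-81825133 (plus strand). In alpha samples 1 to 5 it was at 2.78, 8.32, 7.40, 3.93 and 3.74 FPKM and beta samples 1 to 4 at 8.09, 12.3, 7.13 and 22.2 FPKM. Delta samples ran from 0.653 to 1.66 FPKM (median 0.977), all below the lowest alpha sample. Beta and alpha samples overlapped. Means were 12.4 ± 6.88 FPKM in beta (SD, n = 4), 5.23 ± 2.46 in alpha (SD, n = 5) and 1.05 ± 0.393 in delta cells (SD, n = 6), so delta cells had 0.0847 of the beta level and 0.201 of the alpha level. Delta cells were lower than beta cells by a log2 difference of -2.60 (SE 0.350, limma adjusted p = 0.000107) and lower than alpha cells by -1.54 (SE 0.328, limma adjusted p = 0.00715). The difference from beta cells was called in all alternatives, with limma adjusted p up to 0.00417. The difference from alpha cells was not called among the 9 samples of the lower set, where it was -1.28 (limma adjusted p = 0.178), and was called in all other alternatives. Beta cells exceeded alpha cells by 1.07 (SE 0.364, limma adjusted p = 0.0867), a difference called only with median-ratio size factors (limma adjusted p = 0.0149) or quantile normalization (limma adjusted p = 0.0181).

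Lphn2, a latrophilin of broader tissue range, was highest on average in delta cells. The gene lies at chr3:148815583-148990555 (minus strand). Alpha samples 1 to 5 were at 0.0364, 0.0226, 0, 1.33 and 0.297 FPKM, and beta samples 1 to 3 were listed at 0 with beta 4 at 0.582. Delta samples ran from 0.276 to 3.82 FPKM (median 1.90). Delta 2 lay below alpha 4 and 5 and beta 4, so the groups overlapped. The difference between delta and beta cells was 1.33 (SE 0.367, limma adjusted p = 0.0223, and 0.0237 with no filter), and it was lost without beta 1 (0.0627), beta 3 (0.0515) or delta 3 (0.0510), all adjusted p from limma. Against alpha cells it was 1.16 (SE 0.344) and not called (limma adjusted p = 0.0552, and 0.0542 with no filter), and it was called without alpha 4 (0.0225), without delta 2 (0.00928) and with a filter of 0.5 FPKM (0.0431), again limma adjusted p.

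Lphn1, the latrophilin first found as the receptor of black widow toxin, was called in none of the comparisons. It lies at chr8:83900105-83941954 (plus strand). The 5 alpha samples were at 1.91, 0.499, 0.701, 22.0 and 12.8 FPKM, beta samples 1 to 4 at 9.55, 7.68, 17.0 and 6.93, and delta samples from 1.97 to 27.0 with a median of 13.1. The alpha samples split along the ribosomal sets, alpha 1 to 3 lying below every beta sample, alpha 4 above all 4 and alpha 5 above 3 of them, and beta and delta samples overlapped. Means within the higher and lower set were 1.04 and 17.4 FPKM in alpha, 7.68 and 11.2 in beta and 3.70 and 18.6 in delta cells. Delta and beta cells differed by 0.10 with a 95% interval from -1.54 to 1.75 (limma adjusted p = 0.956), and delta and alpha cells by 1.28 (SE 0.727, limma adjusted p = 0.421). Beta and alpha cells differed by 1.18 (SE 0.806, limma adjusted p = 0.406), a difference that turned to -0.64 within the lower set.

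The 3 latrophilins can also be read as shares of their sum. The summed FPKM of the 3 genes ran from 4.72 to 27.3 in alpha, from 17.6 to 29.7 in beta and from 2.90 to 29.7 in delta cells. Lphn3 made up 29.5% to 74.7% of that sum in beta cells (median 53.7%), 14.4% to 94.1% in alpha cells (median 58.8%) and 3.36% to 22.5% in delta cells (median 6.14%). Lphn1 made up 59.4% to 90.8% in delta cells (median 75.4%), 23.3% to 70.5% in beta cells (median 46.3%) and 5.64% to 80.8% in alpha cells (median 40.5%). The share of Lphn2 was 5.83% to 23.2% in delta cells, at most 4.87% in alpha and at most 1.96% in beta cells, so for Lphn2 the delta samples did not overlap the others. For Lphn3, delta and beta samples did not overlap, and alpha 4 and 5 fell within the delta range. These shares were not tested.

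**Figure D4:**
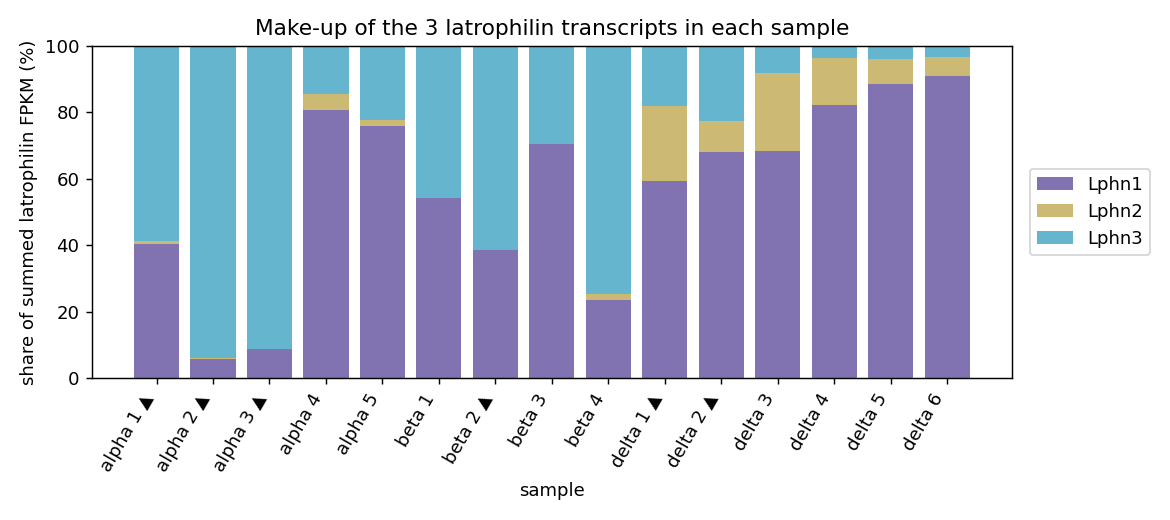
Share of the summed latrophilin FPKM taken by Lphn1, Lphn2 and Lphn3 in each sample, in percent, with a triangle at the name of samples of the higher ribosomal set. Lphn3 takes at most 22.5% in any delta sample and at least 29.5% in each beta sample, and alpha 1 to 3 differ from alpha 4 and 5.

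Cd97 was high in all delta samples and in 1 alpha sample. The gene lies at chr8:83723251-83741326 (minus strand), 158.8 kb from Lphn1 with no protein-coding gene between them. From 1 to 5, the alpha samples were at 3.05, 0.698, 0.216, 16.8 and 1.76 FPKM, beta samples 1 to 4 at 0.220, 2.13, 0.172 and 0.399, and delta samples from 5.96 to 11.9 with a median of 7.32. Delta and beta samples did not overlap, and alpha 4 alone among alpha samples lay above the delta samples. Delta cells (8.34 ± 2.37 FPKM, SD, n = 6) exceeded beta cells (0.730 ± 0.937, SD, n = 4) by 2.53 (SE 0.574, limma adjusted p = 0.00726), and this was called in all alternatives, with limma adjusted p up to 0.0362. Against alpha cells the difference was 1.45 (SE 0.539) and not called (limma adjusted p = 0.146), but without alpha 4 it was 2.05 (limma adjusted p = 0.00337). Within the lower ribosomal set, which holds alpha 4, it was 0.53 (limma adjusted p = 0.832). Beta and alpha cells differed by -1.08 (SE 0.597, limma adjusted p = 0.301).

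As Cd97 is carried by leukocytes, 8 leukocyte markers were read beside it. Their sum was 0.328 to 1.32 FPKM in alpha, 0.00606 to 2.79 in beta and 0.174 to 4.19 in delta cells, and none averaged above 1 FPKM in any cell type. Of the 8, 7 had their highest mean in delta cells. Tyrobp and Laptm5 were at 0 in all alpha and beta samples and averaged 0.559 and 0.113 FPKM in delta cells, and Cd52 was above 0 only in 2 delta samples. Ptprc, the common leukocyte antigen, was at 0 in 5 of the 6 delta samples. The part of leukocyte RNA in the Cd97 values was not tested. Ddx39 overlaps Cd97 on the opposite strand, and it was at 1.85 to 7.25 FPKM in alpha, 0.205 to 3.86 in beta and 2.06 to 4.79 in delta cells. Other receptors overlap genes of the table too. Gm25135 (an snRNA gene, at most 11.3 FPKM) and Gm23156 (a miRNA gene, at most 85) lie on the strand of Gpr116 and of Celsr3. Gm10644 (at most 5.64) and Gm16054 (at most 0.369) lie opposite Lphn1 and Lphn3. Whether reads were assigned by strand is not given in the sources used here.

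Gpr56 was the most abundant receptor of the 9 in delta cells and in alpha cells. It lies at chr8:94974751-95014217 (plus strand). Its level in alpha samples 1 to 5 was 25.6, 8.77, 3.73, 14.03 and 19.5 FPKM, beta samples 1 to 4 at 9.38, 17.6, 6.41 and 4.96, and delta samples from 15.5 to 36.1 with a median of 27.5. Only delta 2 fell below the highest beta sample, and alpha samples spanned from below the beta range into the delta range. Delta cells (27.4 ± 7.39 FPKM, SD, n = 6) exceeded beta cells (9.58 ± 5.63, SD, n = 4) by 1.52 (SE 0.468, limma adjusted p = 0.0394). That call was held in 7 of 15 fits that left out 1 sample, and the limma adjusted p reached 0.135 without beta 4. It was not called with size factors (0.0969), the replicate block (0.106) or no filter (0.0522), all limma adjusted p. Delta and alpha cells differed by 1.07 (SE 0.439, limma adjusted p = 0.201).

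The Celsr genes code for large cadherins that align polarity between neighbouring cells, and they were low to moderate. Celsr3 (chr9:108826320-108852969, plus strand) was at 1.47, 0.822, 0.982, 2.69 and 2.77 FPKM in alpha samples 1 to 5, at 1.13, 0.432, 0.676 and 0.739 in beta samples 1 to 4, and from 1.57 to 4.06 in delta cells (median 2.35). Delta and beta samples did not overlap, and alpha samples overlapped both. Delta cells exceeded beta cells by 0.99 (SE 0.295, limma adjusted p = 0.0329), and the call was lost in 7 of 15 fits that left out 1 sample (limma adjusted p up to 0.0752). It was also lost with size factors (0.181), quantile normalization (0.268) or the replicate block (0.0803), all limma adjusted p. Celsr2 (chr3:108390851-108415552, minus strand) was at 0.274, 0.944, 0.0165, 3.98 and 15.7 FPKM in alpha samples 1 to 5, at 1.71, 0.719, 1.05 and 3.56 in beta samples 1 to 4 and from 2.13 to 9.46 in delta cells (median 4.29). All groups overlapped, and it was called in no comparison (limma adjusted p from 0.288 to 0.920). Its alpha mean was 0.412 FPKM in the higher and 9.82 in the lower ribosomal set.

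Celsr1 (chr15:85898929-86033777, minus strand) was below the filter. Alpha samples 1 to 5 were at 0, 0, 0.00713, 0.0104 and 0.0101 FPKM, beta samples 1 to 4 at 0.176, 0.307, 0.117 and 0.106, and delta samples from 0.0338 to 0.281 with a median of 0.132. All alpha samples lay below all beta and delta samples. In a limma fit with no filter, beta exceeded alpha cells by 0.22 (adjusted p = 0.0709) and delta exceeded alpha cells by 0.19 (adjusted p = 0.0849), neither called. The alpha values rest on few reads: at the depth resolved for alpha 5, its value corresponds to about 2.83 reads.

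Ranked by mean FPKM, delta cells had Gpr56 first, then Lphn1, Cd97, Gpr116, Celsr2, Celsr3, Lphn2, Lphn3 and Celsr1. Beta cells had Lphn3 first, then Lphn1, Gpr56, Celsr2, Celsr3, Cd97, Gpr116, Celsr1 and Lphn2, and alpha cells had Gpr56, Lphn1, Lphn3, Cd97, Celsr2, Celsr3, Lphn2, Gpr116 and Celsr1. The order in beta cells rests on beta 4, without which Lphn3 averaged 9.17 FPKM, below Lphn1 (11.4) and Gpr56 (11.1). In alpha cells the place of Lphn1 rests on alpha 4 and 5, and its median (1.91 FPKM) was below that of Lphn3 (3.93). The alpha means of Cd97 and Celsr2 likewise rest on alpha 4 and on alpha 5, and the median of Celsr2 (0.944 FPKM) was below that of Celsr3 (1.47). Between genes, Gpr116 and Lphn2 varied most alike over the 15 samples (Pearson r = 0.86 of log2(FPKM + 1)) and Cd97 and Lphn3 most oppositely (r = -0.78). The points are samples of 3 cell types that differ in ribosomal set and in depth, so these values are a description, with no p.

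For the 4 receptors called across cell types, the 3 genes with the highest Pearson r over the 15 samples were Myo7b, F5 and Ptprz1 for Gpr116 (each r = 0.98), and Cd99l2, Kcnh2 and Lrp10 for Cd97 (each r = 0.92). For Lphn2 they were Amot (0.95), Ntm (0.93) and Dock1 (0.92), and for Lphn3 they were Prkd1 (0.94), Spc25 (0.92) and Nipal1 (0.92). An r above 0.8 was reached by 315 genes with Gpr116, 238 with Lphn2, 142 with Cd97 and 58 with Lphn3.

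Some genes of the family are neighbours on the chromosome. Gpr97 lies 3.5 kb from Gpr56 with no protein-coding gene between. Gpr97 reached at most 0.786 FPKM, while Gpr56 was at 3.73 FPKM or more in every sample. Gpr110, 35.7 kb from Gpr116, was listed at 0 in alpha and beta cells and ran from 0.0127 to 0.247 FPKM in delta cells, which like those of Gpr116 were above all other samples. Of the 22 other adhesion receptors in the table, 3 were tested (Bai3, Gpr98 and Gpr125) and 4 were listed at 0 throughout. Bai3, a receptor bound by C1q-like proteins, was the 1 called across cell types, beside 16.0% of all genes, and the call was lost within the lower ribosomal set (limma adjusted p = 0.055). It averaged 0.954 FPKM in alpha, 3.52 in beta and 5.25 in delta cells, with delta above alpha cells by 1.68 (limma adjusted p = 0.00233, lost within the lower ribosomal set at 0.0703) and beta above alpha cells by 1.22 (limma adjusted p = 0.0413). The latter was lost in 10 of 15 fits that left out 1 sample (limma adjusted p up to 0.136), with no filter (0.0638), a filter of 5 FPKM (0.071), the ribosomal set as covariate (0.0512), only the cell types compared (0.101) and within the lower set (0.309).

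Genes whose proteins bind these receptors were read from a list of 28, of which 27 were in the table and 14 were tested. Of the 14, 5 (Cd55, Nrxn2, Sftpd, Tgm2 and Unc5b) passed the filter only through delta cells and so had to differ, and the counts that follow are a description. By limma's F-test 12 of the 14 were called across cell types, beside 16.0% of all genes. Between delta and alpha cells 9 were higher in delta cells (5 of them from those 5 genes) and 1 lower, beside 5.33% and 1.48% of all genes. Between delta and beta cells 7 were higher (4 of them from those 5 genes) and 1 lower, beside 11.7% and 2.99%. Between beta and alpha cells 1 was higher in beta cells and 3 were lower, beside 2.84% and 4.82%. Over all alternatives the number called was 5 to 13 across cell types, 4 to 11 between delta and alpha, 4 to 10 between delta and beta and 1 to 6 between beta and alpha cells. The latrophilin-binding teneurins took different directions. Tenm2 averaged 36.3 FPKM in beta and 5.48 in delta cells and was lower in delta than in beta cells by -2.78 (limma adjusted p = 0.0119), as was Lphn3. Tenm3 averaged 2.87, 17.0 and 13.5 FPKM, above alpha cells in beta cells by 2.62 (limma adjusted p = 0.00329) and in delta cells by 2.25 (limma adjusted p = 0.0038). Within the lower ribosomal set neither of these was called (limma adjusted p = 0.0816 and 0.125). Tenm4 averaged 3.25, 0.490 and 4.86 FPKM, higher in delta than in beta cells by 1.96 (limma adjusted p = 0.00165). Unc5c, a netrin receptor of a family that joins Flrt and latrophilin complexes, averaged 3.69, 0.770 and 11.2 FPKM, higher in delta than in beta cells by 2.74 (limma adjusted p = 6.31e-05). Nrxn2, a neurexin among those 5 genes, averaged 0.642, 0.00304 and 4.97 FPKM, higher in delta than in alpha cells by 1.82 (limma adjusted p = 0.00158, and 0.00289 with no filter) and than in beta cells by 2.47 (limma adjusted p = 0.000149, and 0.000355 with no filter).

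**Figure D5:**
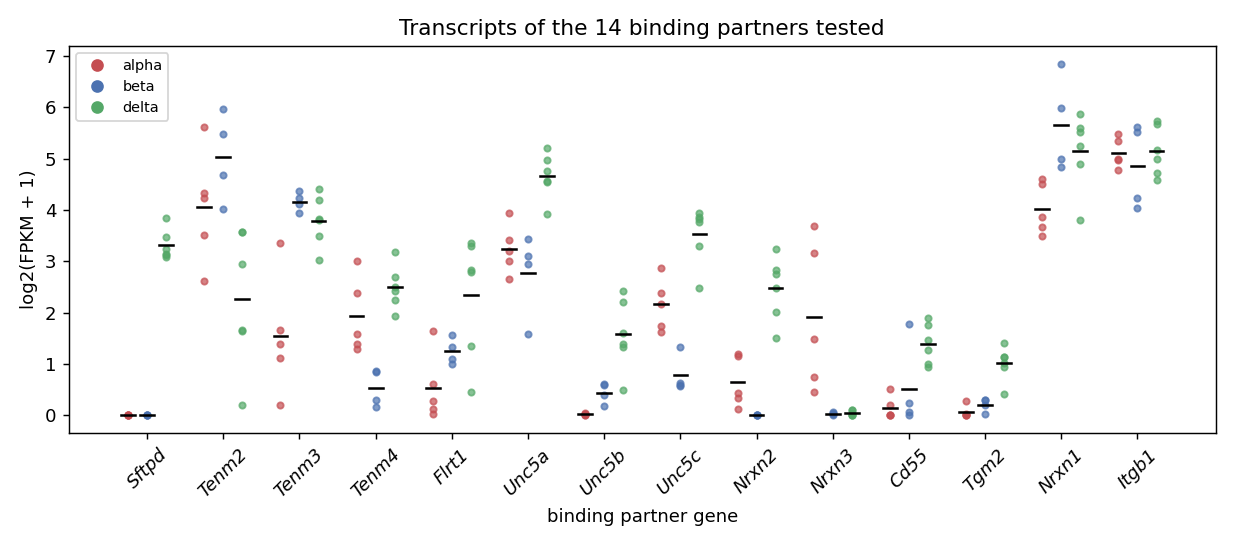
Log2(FPKM + 1) of the 14 tested binding partners in each sample, coloured by cell type, with bars for the means. Sftpd is listed at 0 in every alpha and beta sample and reaches 7.42 to 13.4 FPKM in delta cells, and Tenm2 is lowest in delta cells with a mean of 5.48 FPKM.

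The planar cell polarity genes, with which the Celsr proteins act, numbered 11, of which 10 were tested and 4 were called across cell types, beside 16.0% of all genes. This number was 2 to 4 when single samples were left out and 0 to 4 over all alternatives. Prickle2, a cytoplasmic polarity protein that passed the filter only through delta cells, averaged 0.141 FPKM in alpha, 0.382 in beta and 1.99 in delta cells, higher in delta than in alpha cells by 1.36 (limma adjusted p = 0.00149, and 0.000272 with no filter) and than in beta cells by 1.11 (limma adjusted p = 0.00788, and 0.00183 with no filter). Ankrd6, a homologue of fly diego, exceeded its beta level in delta cells by 1.64 (limma adjusted p = 0.00324). Dvl2, a dishevelled adaptor, differed by -1.61 between beta and alpha cells (limma adjusted p = 0.0228) and delta exceeded beta cells by 1.51 (limma adjusted p = 0.0148). The first was lost without alpha 2 (0.0562) or beta 4 (0.0632), with only the cell types compared (0.0578) and within the lower ribosomal set (0.119), and the second with quantile normalization (0.0934), all limma adjusted p. Vangl1, a membrane partner of the Celsr proteins, differed by -1.25 between beta and alpha cells (limma adjusted p = 0.0380), a call lost in 10 of 15 fits that left out 1 sample (limma adjusted p up to 0.110). It was also lost with the replicate block (0.0791), with only the cell types compared (0.0641) and within the lower ribosomal set (0.196), all limma adjusted p.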

How the data were processed

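RNA from sorted islet cells was amplified (NuGEN) and read as single 50 nt ends. The authors aligned reads to GRCm38 with TopHat (TopHat2 2.0.8 in the submitters' processing notes) and deposited 1 FPKM value per gene and sample from Cufflinks 2.2.1. Their edgeR comparison used raw counts, not used here. Amplification and FPKM scaling leave levels dependent on the make-up of each library.

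Samples were grouped by their labels. Genes with a mean above 1 FPKM in a cell type (14405 of 38283) were tested with limma 3.58.1 in R 4.3.3 (lmFit, eBayes with trend) on log2(FPKM + 1), fitting all 15 samples together without a covariate, with two-sided tests and Benjamini-Hochberg adjustment. Depth was read from steps in the values of 5024 genes with 1 transcript. Loci are from GENCODE M21 and promoters from RefSeq (GRCm38.p6). Python 3.11.15 with pandas 2.3.3 and matplotlib 3.10.9 was used for the rest.

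The members and gene lists were chosen with earlier results of these data known. The named genes are the 9 receptors, the 3 genes most like each receptor called across cell types, and, from each list, at most 6 genes called across cell types with the largest differences. Neighbouring and overlapping genes were named after their values were seen. Alternatives were other filters, no filter, a pseudocount of 0.1, median-ratio size factors, quantile normalization, a replicate block, the ribosomal set as covariate, eBayes without trend, fits of only the cell types compared, and leaving out each sample in turn. The fit of the 9 samples of the lower ribosomal set and the 50000 FPKM limit were chosen after the data were seen. A neighbouring gene and a list of signalling genes are not reported here.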

Additional observations from a re-analysis of the deposited data

Results flagged for a closer look

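In beta cells, Lphn2 was at 0.582 FPKM in beta 4 and listed at 0 in the other 3 beta samples, so this sample stood apart from the rest of its group by the whole range of the values. Among the 27 combinations of receptor and cell type examined in the same way, 1 showed such a sample, where chance gives about 1.35. With the other 3 values at 0, any value above 0 in beta 4 spans the whole range, so that expectation does not cover this case.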

How the results depend on the processing

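Without a count table, depth limits the low values, and 9 samples have no known depth. Of the receptors' differences between pairs of cell types recomputed under the alternatives, 571 kept their direction and stayed called or not called. Another 25 lost their call, 6 gained one and 16 turned direction. Lphn3 alone made the count of receptors called between beta and alpha cells 1 with median-ratio size factors and 1 with quantile normalization; leaving out single samples gave 0. The count between delta and alpha cells was 1 in the lower ribosomal set and 2 to 4 when single samples were left out (4 without alpha 4). Between delta and beta cells it was 3 to 6 (3 without beta 3 and without delta 3). Size factors brought the median difference of all genes from -0.13, 0.13 and 0.30 (beta minus alpha, delta minus alpha, delta minus beta) to 0.00, 0.00 and 0.02. Calls higher and lower went from 409 and 695, 768 and 213, and 1683 and 431 to 1091 and 981, 722 and 342, and 1379 and 1297.

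Reversals were confined to differences that were not called. For Lphn1, delta minus beta was -0.29 with size factors, -0.14 with quantile normalization, -0.50 with the replicate block and -0.15 to 0.49 when single samples were left out, and beta minus alpha was -0.64 in the lower set. For Celsr2, beta minus alpha was 0.35 with a pseudocount of 0.1, 0.024 with size factors, 0.0066 with quantile normalization, 0.26 with the replicate block and -0.56 to 0.45 when single samples were left out, and delta minus alpha was -0.41 in the lower set. For Lphn2, beta minus alpha ran from -0.34 to 0.051 when single samples were left out. The cause was not tested. With a filter of 5 FPKM, Lphn2, Celsr2 and Celsr3 were not tested. Same-numbered samples had a mean correlation of 0.0761 over 13 pairs (-0.152 to 0.281) and 3 of 14 correlated best with their own number. Delta samples come from another mouse line, so only alpha and beta samples could share mice. Their same-numbered pairs correlated at -0.0395, 0.271, -0.152 and 0.0731, and whether they share mice cannot be told from these values. The replicate block called 1227, 831 and 2001 genes in the 3 comparisons, and under it Gpr56 (limma adjusted p = 0.106) and Celsr3 (0.0803) were no longer called between delta and beta cells, nor Cd97 across cell types (0.0672) or Vangl1 between beta and alpha cells (0.0791).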
